A study of Mus musculus with 22 samples.

Results

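The direct difference between E2F1-expressing and empty-vector cells after 6 h of doxycycline was examined in 4 of 22 RNA libraries, over all 11208 genes of the deposited expression table. The cells were NIH/3T3, an established line of mouse embryonic fibroblasts. They carried a stably integrated, doxycycline-inducible construct that held either E2F1 (the E2F1 line) or no insert (EV, empty vector). Both lines had spent 48 h in medium with 0.25% serum, which brings fibroblasts close to a resting, G0-like state, and were then given 500 ng/ml doxycycline in place of serum, so the drug itself was present in both arms. Each arm had 2 libraries at 6 h, chosen by line, drug and hour. The same difference before doxycycline (0 h, 2 libraries of each line) is given beside the main results, because it shows what already separated the lines. The comparison asks which genes an induced E2F1 moves in starved cells without a serum stimulus. Each construct was present in a single line, and whether the lines were clones is not given in the sources used here, nor is the species of the E2F1 insert. The labels do not say that replicates were separate cultures, so p-values measure a spread between replicate libraries that may be technical. This spread was estimated from all 22 libraries in 11 groups, not from the 4 compared alone.

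E2F1 is a DNA-binding activator that works as a dimer with a DP protein. In resting cells it is held in check by the retinoblastoma protein RB, and cyclin-dependent kinases release it as cells pass from G1 into S phase. Its known targets include the cyclins E, the enzymes that make deoxynucleotides and the machinery that loads and copies DNA, and it is also known for targets in cell death.

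Values were normalized counts, which the submitters had scaled between libraries and rounded to whole numbers. A log2 difference below is the mean of log2(value + 1) in the E2F1 libraries minus that in the EV libraries, and folds are the same quantity on the linear scale. "Called" means an adjusted p under 0.05 in limma, a linear model fitted to all genes. Library totals at 6 h were 37401882 and 36606142 in the E2F1 line and 35598320 and 35093408 in the EV line. The original read depth of these 4 libraries is unknown, whereas the 0 h libraries held an estimated 32200000 to 39400000 reads on these genes. Replicates at 6 h lay a median of 0.122 (E2F1) and 0.118 (EV) apart on the log2 scale, without regard to sign. All 10 fibroblast markers were in the table, and their summed level was 926920 and 892029 in the E2F1 line against 1273255 and 1153224 in the EV line at 6 h, and 1079063 and 1088164 against 1222039 and 1169250 at 0 h. None of the epithelial, endothelial, muscle or adipocyte markers was in the table, and of 5 leukocyte markers it held Csf1r alone. In bulk RNA, fewer cells of a kind and less RNA per cell cannot be told apart.

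E2f1 itself read 3806 and 3602 in the E2F1 line and 1426 and 1506 in the EV line at 6 h. Both E2F1 libraries lay above both EV libraries. The difference was 1.34 ± 0.11 on the log2 scale (SE; limma, adjusted p = 9.006e-09), a 2.53-fold difference. At 0 h the lines did not separate, with 1703 and 1637 against 1635 and 1655 (log2 difference 0.02, adjusted p = 0.9254). The gene lies on chromosome 2 at 154559407-154569892 (GRCm38). Whether transcripts of the construct were counted under mouse E2f1 is not given in the sources used here. At 2 h of doxycycline E2f1 read 1535 and 1755 in the E2F1 line, still near its 0 h level.

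At 6 h 6744 of 11208 genes (60.2%) differed between the lines in limma, 3695 (33.0%) higher in the E2F1 line and 3049 (27.2%) lower. The 2 directions were far less balanced among large differences. By at least 2-fold 1379 genes (12.3%) were higher and 417 (3.72%) lower; by at least 4-fold 335 were higher and 15 lower, and by at least 8-fold 87 were higher and 1 lower. In 9190 genes (82.0%) the 2 E2F1 libraries did not overlap the 2 EV libraries, with the E2F1 line above in 4713 (42.1%) and below in 4477 (39.9%). The near balance of small differences depended on scaling: with quantile normalization 2964 genes were higher and 4256 lower, and the median over all genes shifted by -0.147. With all libraries set to equal totals 3348 were higher and 3604 lower. The table holds no gene with a mean below 99.6 over all libraries, so genes faint at 0 h were higher in other libraries. These can include the compared E2F1 libraries at 6 h, so large folds among faint genes were favoured by that floor. Of the 139 genes with a 0 h mean under 100 in these 4 libraries, 22 were higher by at least 8-fold at 6 h, and 2 of the 3951 genes above 2000 were.

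Before doxycycline the lines differed in 1684 genes (15.0%), 993 (8.86%) higher and 691 (6.17%) lower in the E2F1 line, and by at least 2-fold in 148 (1.32%) and 60 (0.535%). These counts varied with the libraries: leaving out 1 gave 384 to 798 higher and 300 to 438 lower genes, the fewest without E2F1 0 h replicate 1, and a fit of only these groups gave 385 and 268. The shares called or not called at 0 h below rest on the counts from all libraries. The 0 h and 6 h differences shared no library. Of the genes higher at 6 h, 694 (18.8%) were already higher at 0 h, 62 were lower at 0 h and 2939 (79.5%) were not called at 0 h. Of the genes lower at 6 h, 507 (16.6%) were already lower and 2512 (82.4%) were not called at 0 h. Seen from the 0 h side, 69.9% of the genes higher and 73.4% of those lower at 0 h had a 6 h call of the same sign. Across genes, which are not independent and share libraries within each hour, the 2 differences had a Pearson r of 0.54 and a Spearman rho of 0.53. A test of the 6 h difference minus the 0 h difference called 3866 genes (34.5%), 2493 (22.2%) upward and 1373 (12.3%) downward. This split depended on scaling, with 2068 upward and 2583 downward under quantile normalization and 2101 and 2251 with equal totals, and without EV 6 h replicate 1 883 were downward. By at least 2-fold it called 1013 genes (9.04%) upward and 144 (1.28%) downward.

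**Figure D1:**
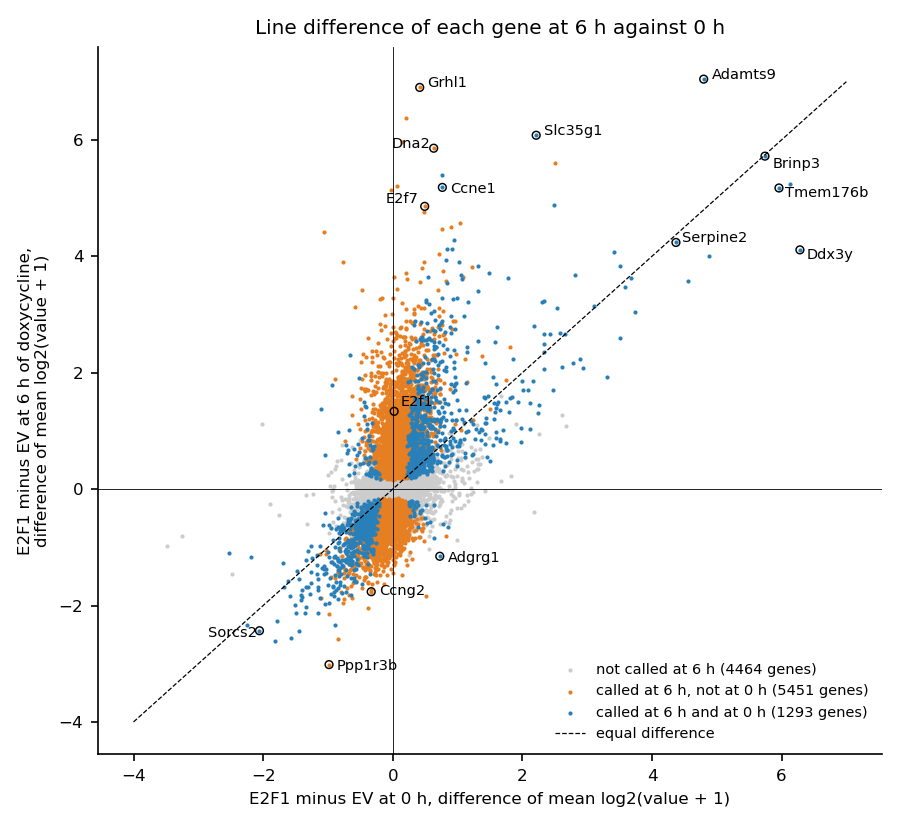
Each point is a gene, with the E2F1-minus-EV log2 difference at 0 h on the x axis and at 6 h on the y axis. Most of the 5451 genes called at 6 h and not at 0 h (orange) stretch along the vertical. Adamts9, Brinp3 and Tmem176b, among the 1293 genes called at both (blue), lie far to the right. Brinp3 is near the line of equal difference (5.74 at 0 h and 5.72 at 6 h), and Adamts9 is above it (4.80 and 7.04).

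The largest differences without a call at 0 h were in Grhl1, Ptpru and Nxph3, whose EV values at 6 h were at most 13. The table holds no gene with a mean below 99.6 over all libraries. Genes this faint are therefore in it only through libraries where they were higher, which include the E2F1 libraries at 6 h compared here. A gene that stayed this faint in all libraries could not appear, so large folds were favoured among such genes. Grhl1, a grainyhead-like transcription factor of epithelia, read 1573 and 1270 in the E2F1 line and 13 and 9 in the EV line at 6 h, a 119-fold difference (log2 6.90 ± 0.68, limma adjusted p = 8.52e-08). Its 0 h libraries were all low and overlapped, with 18 and 14 against 19 and 7. Ptpru, a receptor-type tyrosine phosphatase, read 541 and 417 against 10 and 2, and Nxph3, a neurexophilin, 615 and 621 against 8 and 10. Both genes were again low and overlapping at 0 h, with 18 and 15 against 9 and 22 for Ptpru and 21 and 20 against 28 and 12 for Nxph3. Their log2 differences at 6 h were 6.37 and 5.96.

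Dna2, a nuclease and helicase that trims Okazaki fragments and broken ends, combined a large fold with a high level. It read 5898 and 5978 in the E2F1 line against 74 and 139 in the EV line (log2 5.86 ± 0.32, limma adjusted p = 4.655e-11), and 224 and 193 against 114 and 157 at 0 h. Nanos1, an RNA-binding protein known from germ cells, read 3235 and 3164 against 88 and 84. Skida1 read 1573 and 1579 against 49 and 39. Both stood at like levels in the 2 lines at 0 h, with log2 differences of 0.06 and -0.02. Lrrc75b (log2 5.60) and Dennd5b (4.57) completed these 10 genes with E2f7 and E2f2, described below. For Lrrc75b the 0 h libraries were uneven, with 28 and 106 against 5 and 15, and its 6 h difference was not called as larger than the 0 h difference (3.10, adjusted p = 0.07863). Dennd5b is overlapped by other annotated genes, and the counting's use of strand is not stated, so its reads may include theirs.

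The lowest values were smaller in size and came mostly from genes of low level, Hlf, at 1043 and 746 against 3553 and 2968, being an exception. Ppp1r3b, a subunit that directs protein phosphatase 1 to glycogen, read 28 and 36 in the E2F1 line against 380 and 183 in the EV line (log2 -3.01 ± 0.64, limma adjusted p = 0.0005481), the single gene that was lower by at least 8-fold. It was not called at 0 h, with 128 and 80 against 273 and 148, and all libraries of the E2F1 line lay below those of the EV line at both hours. Its 6 h difference minus its 0 h difference was -2.03 and was not called (limma adjusted p = 0.08994). Odaph read 17 and 14 against 80 and 117 (log2 -2.57). Its 6 h difference exceeded the 0 h difference (-1.73, limma adjusted p = 0.01821). The same held for Gm50321 (-1.67, adjusted p = 0.03288) and Tnfaip3 (-2.35, adjusted p = 0.0149). The other genes with the lowest values and no call at 0 h were Gsto2, a glutathione transferase, Gm50321, Gm4419, Mfsd9, Hlf, a circadian bZIP factor, 2810433D01Rik, Tnfaip3, the ubiquitin-editing enzyme A20, and Elovl7, a fatty acid elongase. In Gsto2, Gm4419, Mfsd9, Hlf, 2810433D01Rik and Elovl7 both E2F1 libraries already lay below both EV libraries at 0 h (log2 -0.63 to -1.11). The 6 h differences of these genes were not called as larger than those at 0 h. Across the genes from Gsto2 to Elovl7 the 6 h differences ran from -1.82 to -2.14. Of these, Hlf lost its call without E2F1 replicate 2, and Tnfaip3 lost its call without E2F1 replicate 2 or EV replicate 2.

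**Figure D2:**
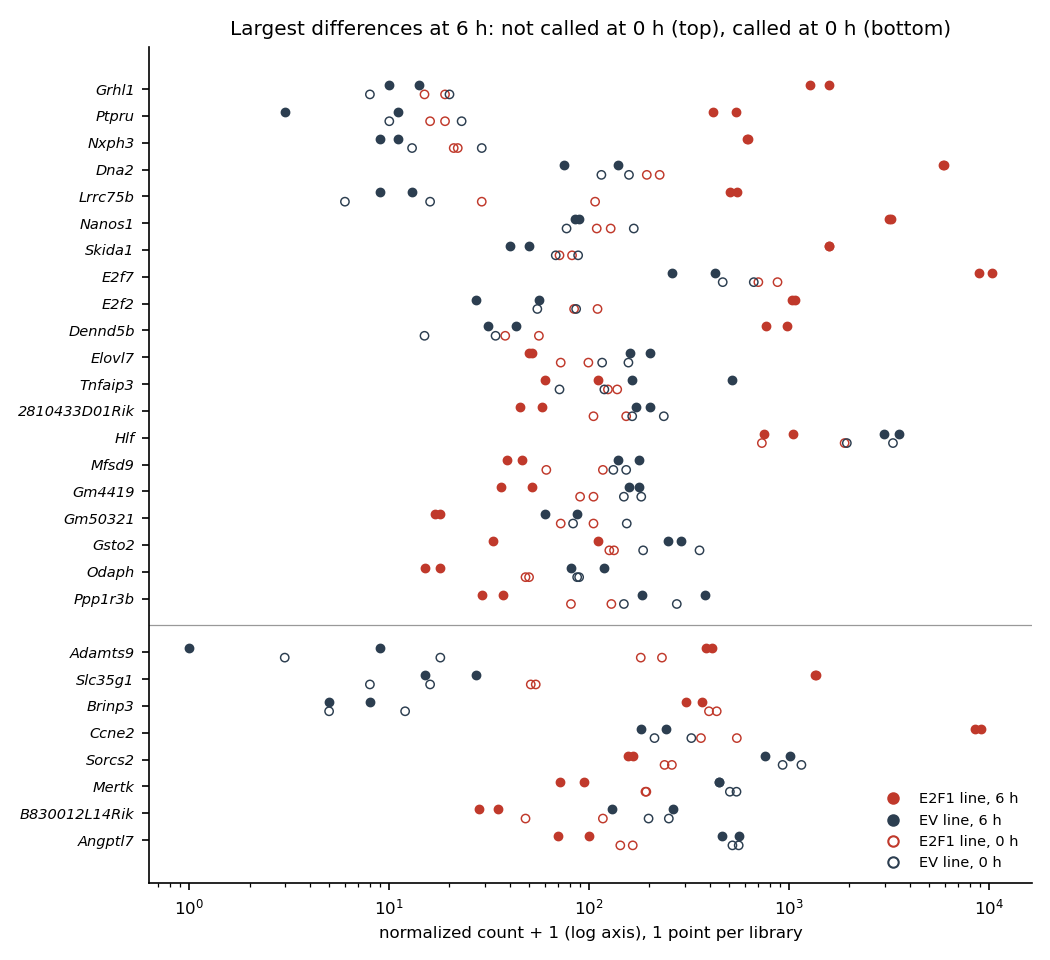
Normalized count plus 1 of each library on a log axis, for the 10 highest and 10 lowest genes without a call at 0 h (upper block) and the 4 highest and 4 lowest with one (lower block). In the upper block the filled red points (E2F1, 6 h) stand alone on the right for Grhl1 to Dennd5b, with the open points (0 h) of both lines to their left, and in the lower block the open red points of Adamts9 (180 and 230) and Brinp3 (396 and 433) are already far from the EV points.

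The activators and the atypical repressors of the E2F family were higher in the E2F1 line, and E2f4 and E2f5, at 0.12 and 0.17, were not called. Of the 9 measured E2F and DP factors 7 were higher and 0 lower, with a median log2 difference of 1.34 against 0.01 over all genes. Over all genes 33.0% were higher and 27.2% lower, the shares beside which this and later list counts stand. E2f7, an atypical E2F that represses E2F targets, read 10316 and 8937 in the E2F1 line against 257 and 424 in the EV line (log2 4.86 ± 0.21, limma adjusted p = 4.364e-12). E2f8, the other atypical member, read 3505 and 2880 against 172 and 352 (log2 3.68). E2f2, an activator like E2f1, read 1068 and 1037 against 26 and 55 (log2 4.76). In all 3 genes the groups were far apart at 6 h, and among them E2f8 was also higher at 0 h, by 1.05. The activator E2f3 was higher by 1.13 and the dimer partners Tfdp1 and Tfdp2 by 1.52 and 1.24.

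RB-like pocket proteins bind E2Fs, and the MuvB complex switches between a repressor form with pocket proteins and an activator form with Mybl2 (B-Myb) and Foxm1. Of 10 such genes 7 were higher and 1 lower. Mybl2 read 3290 and 3080 against 152 and 218 (log2 4.12 ± 0.26, limma adjusted p = 2.743e-10), and was already higher at 0 h by 0.91 (adjusted p = 0.02524). Lin54, the DNA-binding subunit of MuvB, read 2642 and 2502 against 459 and 612, a log2 difference of 2.28. Pocket proteins, which hold E2Fs in check, were among the higher genes. Rb1 itself read 2642 and 2296 against 629 and 710 at 6 h and 514 and 478 against 642 and 605 at 0 h. Rb1 thus lay higher in the E2F1 line at 6 h (log2 1.88) and not at 0 h (-0.33, adjusted p = 0.1765), and the 6 h difference exceeded the 0 h difference by 2.21 (adjusted p = 6.159e-07). Rbl1, which encodes p107, was higher by 2.01. Rbl2, which encodes p130, the pocket protein typical of resting cells, was the 1 lower gene of the list, at -0.33, a call lost without any 1 of the 4 libraries at 6 h.

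Cyclin E genes showed the largest differences of the G1 machinery. Ccne1 read 10461 and 9521 in the E2F1 line against 229 and 327 in the EV line (log2 5.18 ± 0.22, limma adjusted p = 2.445e-12), a 36.3-fold difference. Ccne2 read 9083 and 8538 against 180 and 242 (log2 5.39). Both cyclins were also higher at 0 h, by 0.77 and 0.76, with 666 and 544 against 281 and 445 for Ccne1. The 6 h difference exceeded that of 0 h by 4.42 for Ccne1 and 4.63 for Ccne2, both called in limma (adjusted p = 8.165e-09 and 2.474e-08). Of 9 G1 cyclins and kinases 7 were higher and 1 lower. Cdk2, the partner of cyclin E, read 3927 and 3675 against 966 and 1129 (log2 1.86), and Cdc25a, the phosphatase that activates it, 2434 and 2331 against 629 and 793 (log2 1.75). The D cyclins act earlier and answer to growth factors. Ccnd3 was higher by 0.95, Ccnd2 was lower (-0.43) and Ccnd1 read 1549 and 1349 against 1186 and 1908 (-0.06, adjusted p = 0.8455).

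CDK inhibitors were higher as well, all 4 of those in the table. Cdkn1a, which encodes p21, read 13789 and 12293 in the E2F1 line against 2177 and 2465 in the EV line (log2 2.49 ± 0.10, limma adjusted p = 2.385e-12), and 3066 and 2954 against 2128 and 2064 at 0 h. Cdkn2c, which encodes the CDK4 and CDK6 inhibitor p18, changed sides between the hours. It read 15715 and 15469 against 6350 and 6658 at 6 h and 5456 and 5039 against 6887 and 7380 at 0 h, with no overlap at either hour. Cdkn1b, which encodes p27, was higher by 0.75 and Cdkn2d, which encodes p19, by 0.89, the latter a call lost without replicate 1 of either line.

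Among 13 ubiquitin-pathway genes of the G1/S transition 8 were higher and 1 lower. Dtl, the substrate receptor that sends Cdt1 and p21 to degradation, read 5845 and 5041 against 342 and 569 (log2 3.62), and was already higher at 0 h (1.08). Fbxo5, which encodes the APC/C inhibitor Emi1, read 5428 and 4936 against 486 and 656 (log2 3.19), with 1067 and 943 against 714 and 1164 at 0 h. Skp2, the F-box protein for p27, was higher by 2.72, and Usp1, a deubiquitinase of PCNA and FANCD2, by 2.87. Among the core ligase subunits Ddb1, Rbx1 and Cul4a had values of -0.12, 0.07 and -0.14 and were not called, Cul1 was higher by 0.70 and Cul4b lower at -0.24.

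**Figure D3:**
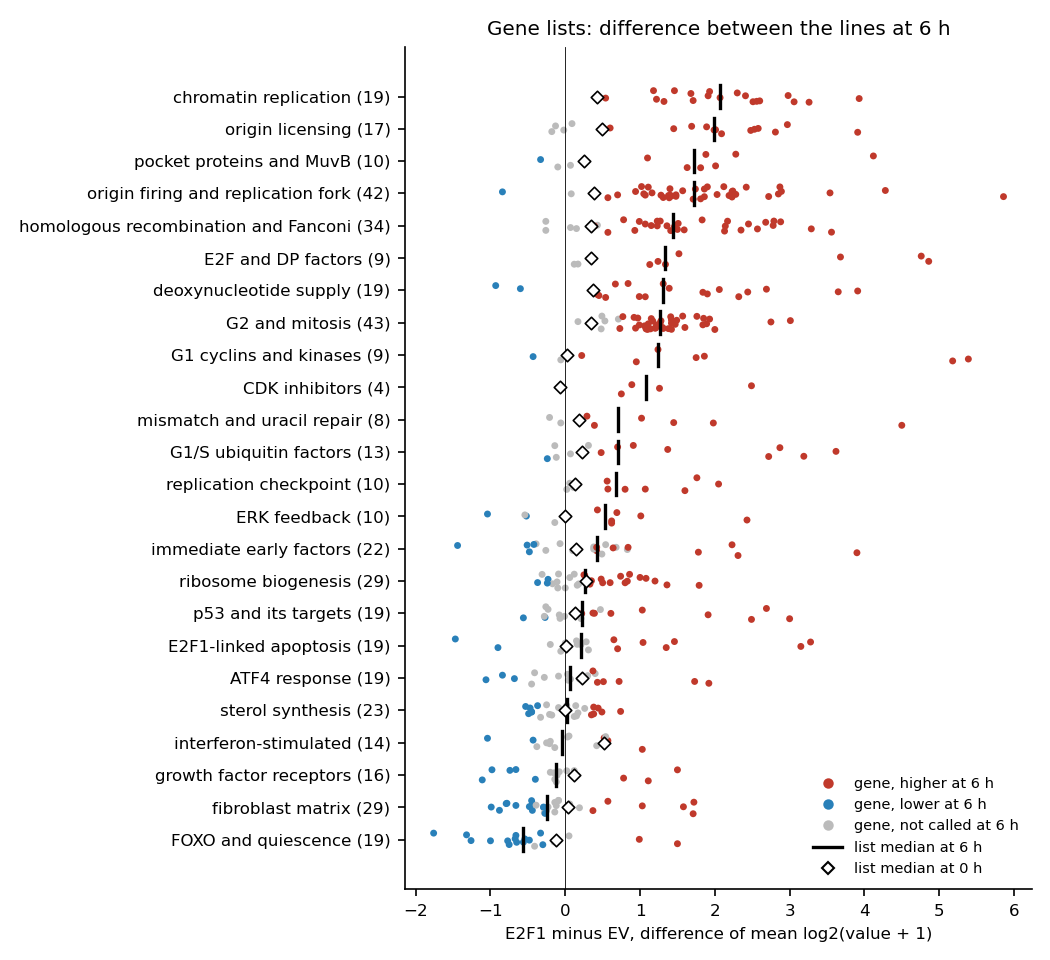
Each point is a gene of a list, placed at its E2F1-minus-EV log2 difference at 6 h, with the list's median at 6 h (bar) and at 0 h (diamond); numbers in parentheses count the list's genes in the table. Bars of the DNA-synthesis lists lie between 0.68 and 2.07 with diamonds below 0.5, whereas the bars for sterol synthesis and the ATF4 response sit at 0.02 and 0.07 and that of FOXO and quiescence genes at -0.56.

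Genes that license replication origins, by loading the MCM helicase onto DNA, were higher in 13 of 17 cases and lower in 0. Cdc6, the loading ATPase, read 2358 and 2254 in the E2F1 line against 130 and 179 in the EV line at 6 h (log2 3.91 ± 0.21, limma adjusted p = 4.755e-11), and was already higher at 0 h by 1.02. All 6 subunits of the helicase, Mcm2 to Mcm7, were higher, by 1.89 (Mcm7) to 2.97 (Mcm6). Mcm6 read 13434 and 14305 against 1529 and 2042, and 4817 and 4588 against 1841 and 2596 at 0 h, so that it differed at both hours (2.97 and 1.10). The licensing inhibitor Gmnn, or geminin, was higher by 2.58 beside the licensing factor Cdt1, at 2.48. Within the origin recognition complex the members split: Orc1, Orc2 and Orc6 were higher by 1.69, 2.01 and 1.45, and Orc3, Orc4 and Orc5, at -0.02, -0.13 and -0.18, were not called.

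Promoter sequences of some genes of these lists hold letters that match E2F sites. Windows from 250 bases before to 50 bases after a gene's start were taken from RefSeq (GRCm38.p6), which had a window for 8609 of the 11208 genes. They were searched on both strands for TTTCCCGC, TTTGGCGC, TTTGCCGC and TTTCGCGC, spellings of the E2F site. The stretches below come from 6 genes of the E2F, cyclin-partner, licensing and chromatin groups. They are shown because each carries a match before its RefSeq start. For Cdc6 and Hells the match lies after the gene's start in GENCODE M21, at 98907801 and 38930915. Matched letters are in capitals, as they read 5′ to 3′ on the gene's strand.
E2f7: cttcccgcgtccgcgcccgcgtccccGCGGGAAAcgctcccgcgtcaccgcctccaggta
Cdk2: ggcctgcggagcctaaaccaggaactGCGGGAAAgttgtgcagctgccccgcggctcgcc
Cdc25a: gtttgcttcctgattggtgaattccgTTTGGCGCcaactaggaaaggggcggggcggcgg
Cdc6: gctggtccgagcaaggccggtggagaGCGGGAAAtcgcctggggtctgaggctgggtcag
Mcm6: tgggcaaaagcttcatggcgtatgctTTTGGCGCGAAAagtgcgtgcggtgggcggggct
Hells: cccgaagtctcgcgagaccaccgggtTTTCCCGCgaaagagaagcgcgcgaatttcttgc

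These stretches lie at chr10:110745215-110745274 (plus strand) for E2f7, chr10:128705158-128705217 (minus strand) for Cdk2, chr9:109875486-109875545 (plus) for Cdc25a, chr11:98907987-98908046 (plus) for Cdc6, chr1:128359782-128359841 (minus) for Mcm6 and chr19:38930902-38930961 (plus) for Hells. The Mcm6 capitals join 2 matches that overlap, TTTGGCGC and GCGCGAAA, and the same window holds another TTTGGCGC at position -47 from the start. A match was found in 9.76% of the windows of genes higher by at least 8-fold at 6 h and in 9.02% of those higher by 2-fold to under 8-fold. It was found in 4.96% of windows of genes higher by less, 3.24% of those of genes not called, 2.86% of those lower by under 2-fold and 2.66% of those lower by more. The share was 4.21% over all windows of the table's genes and 2.26% over all RefSeq windows. By list it was 47.4% for origin licensing (19 windows), 30.8% for origin firing and the fork (39 windows), 2.70% for G2 and mitosis (37 windows) and 0 of 20 windows for deoxynucleotide supply. A match is a description of letters, windows were not matched for base composition, and no match says only that these spellings are not in this window.

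The machinery that fires origins and runs the fork was higher almost as a whole, in 40 of 42 genes, with 1 lower and a median of 1.72. Besides Dna2 the largest differences were in Wdhd1, which tethers polymerase alpha to the helicase, at 4556 and 4425 against 186 and 284 (log2 4.28), and in Clspn, the checkpoint adaptor claspin, at 6838 and 5743 against 418 and 695 (log2 3.54). Both were already higher at 0 h, Wdhd1 by 0.95 and Clspn by 0.83. Pcna, the sliding clamp, read 15075 and 14869 against 1882 and 2293 (log2 2.85 ± 0.16, limma adjusted p = 7.043e-11). Reads of Pcna may be shared with its annotated pseudogenes Pcna-ps1 and Pcna-ps2. Lig1 and Fen1, which seal and trim Okazaki fragments, were higher by 2.89 and 2.87. The primase subunits Prim1 and Prim2 were higher by 1.74 and 2.12, and all 5 clamp loader subunits Rfc1 to Rfc5 by 1.02 to 1.86. The exceptions were Pole3, not called at 0.08, and Pold4, the small polymerase delta subunit, lower at -0.84.

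Enzymes that supply deoxynucleotides were higher in 17 of 19 genes and lower in 2. Rrm2, the S-phase subunit of ribonucleotide reductase, read 12582 and 10444 in the E2F1 line against 569 and 1020 in the EV line (log2 3.91 ± 0.24, limma adjusted p = 2.522e-10), and the groups overlapped at 0 h, with 1617 and 1341 against 785 and 1406. Dck, the salvage kinase for deoxycytidine, read 5103 and 4523 against 328 and 445 (log2 3.65). Tyms, the thymidylate synthase, was higher by 2.32. The 2 lower genes encode enzymes known from cells outside S phase, Rrm2b, the p53-inducible reductase subunit, at -0.93 and Tk2, the mitochondrial thymidine kinase, at -0.60.

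Repair genes of homologous recombination and the Fanconi pathway were higher in 29 of 34 genes and lower in 0, with a median of 1.44. Ube2t, the ubiquitin-conjugating enzyme of the Fanconi pathway, read 967 and 818 against 55 and 101 (log2 3.56). Brca1 read 4633 and 3884 against 355 and 530 (log2 3.29), and Fancm, the translocase that finds stalled forks, 3875 and 3353 against 496 and 544 (log2 2.79). Fancm had no call at 0 h (0.14), in contrast to Brca1 (1.00). Of 8 mismatch and uracil repair genes 6 were higher and 0 lower. Ung, the glycosylase that removes uracil from DNA, stood out in that list at 1303 and 1153 against 39 and 72 (log2 4.50), whereas Msh6 (1.98), Pms2 (1.45) and Msh3 (1.02) had smaller differences and Smug1 (-0.21) was not called. Msh3 and Pms2 are overlapped by other annotated genes, so their reads may not be fully separate.

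Replication checkpoint genes were higher in 7 of 10 cases with 0 lower. Wee1, the kinase that restrains CDK1, read 2925 and 2756 against 699 and 673 (log2 2.05), and Chek1 858 and 811 against 194 and 310 (log2 1.76). The kinase Atr and the clamp factors Rad17 and Hus1 were not called, at 0.06, 0.11 and 0.02, whereas Etaa1, an activator of Atr, Rad1, another clamp subunit, Atrip, the partner of Atr, and Rad9a were higher by 1.6, 0.80, 0.57 and 0.56. Chromatin replication, meaning histone chaperones and the enzymes that copy DNA and histone methylation, was higher in 19 of 19 genes with the highest median of the lists, 2.07. Atad2, a bromodomain ATPase, read 25924 and 22213 against 1217 and 2022 (log2 3.93 ± 0.21, limma adjusted p = 3.732e-11), and was already higher at 0 h by 0.83. Uhrf1, which brings Dnmt1 to replicated DNA, was higher by 3.06, the remodeller Hells by 2.98, Dnmt1 by 1.68, and Ezh2, Suz12 and Eed of Polycomb repressive complex 2 by 2.41, 2.07 and 1.18.

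The lines already leaned the same way before doxycycline. Over the 8 lists of G1 cyclins and kinases, origin licensing, origin firing and the fork, deoxynucleotide supply, both repair lists, the replication checkpoint and chromatin replication, which together held 158 genes, 138 were higher and 4 lower at 6 h, with a median log2 difference of 1.54. At 0 h 50 were higher and 0 lower, with a median of 0.34, and 84.2% of the 158 values were above 0 against 52.8% of all genes. The 0 h count depended on single libraries: it was 9 without EV replicate 1, 69 without EV replicate 2, 12 without E2F1 replicate 1 and 30 without E2F1 replicate 2. The EV replicates differed in these genes, since replicate 2 lay above replicate 1 in 138 of 158 genes at 0 h and in 138 of 158 at 6 h. Over all genes the shares were 51.9% and 48.1%. In the E2F1 line replicate 2 lay above replicate 1 in 34 of 158 genes at 0 h and in 35 of 158 at 6 h. There the shares over all genes were 46.8% and 41.3%. The part of this imbalance in the 0 h difference was not tested.

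Genes of G2 and mitosis were higher in 38 of 43 cases and lower in 0, with a median of 1.27. Ccna2, which encodes cyclin A2, read 6115 and 4808 in the E2F1 line against 986 and 1867 in the EV line (log2 2.00, limma adjusted p = 4.715e-05), Cdk1 4852 and 3972 against 1390 and 2268 (log2 1.31), and Ccnb1, which encodes cyclin B1, 2309 and 1891 against 751 and 1505 (log2 0.97). The E2F1 libraries were above the EV libraries in all 3, though EV replicate 2 came near the E2F1 libraries for Ccnb1. EV replicate 2 was above EV replicate 1 in 43 of 43 genes of this list at 6 h and at 0 h, against 48.1% and 51.9% of all genes. E2F1 replicate 2 was above E2F1 replicate 1 in 1 of 43 at 6 h and in 20 of 43 at 0 h. Over all genes these shares were 41.3% and 46.8%. Without EV replicate 1 the count of higher genes was 22 and the median 0.81, and without EV replicate 2 they were 41 and 1.66. The call for Ccnb1 was lost without EV replicate 1 (0.47) or E2F1 replicate 1 (0.83). The 6 h difference exceeded the 0 h difference in 16 of these 43 genes, and in 37 of the 42 fork genes, against 22.2% of all genes. Ccnf, which encodes cyclin F, was the largest at 7835 and 6808 against 643 and 1280 (log2 3.01), and Pttg1, Ccnb2, Ube2c, Cenpa and Cdc25c, at 0.17 to 0.71, were not called. Ccnb1 shares sequence with the annotated pseudogene Ccnb1-ps.

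**Figure D4:**
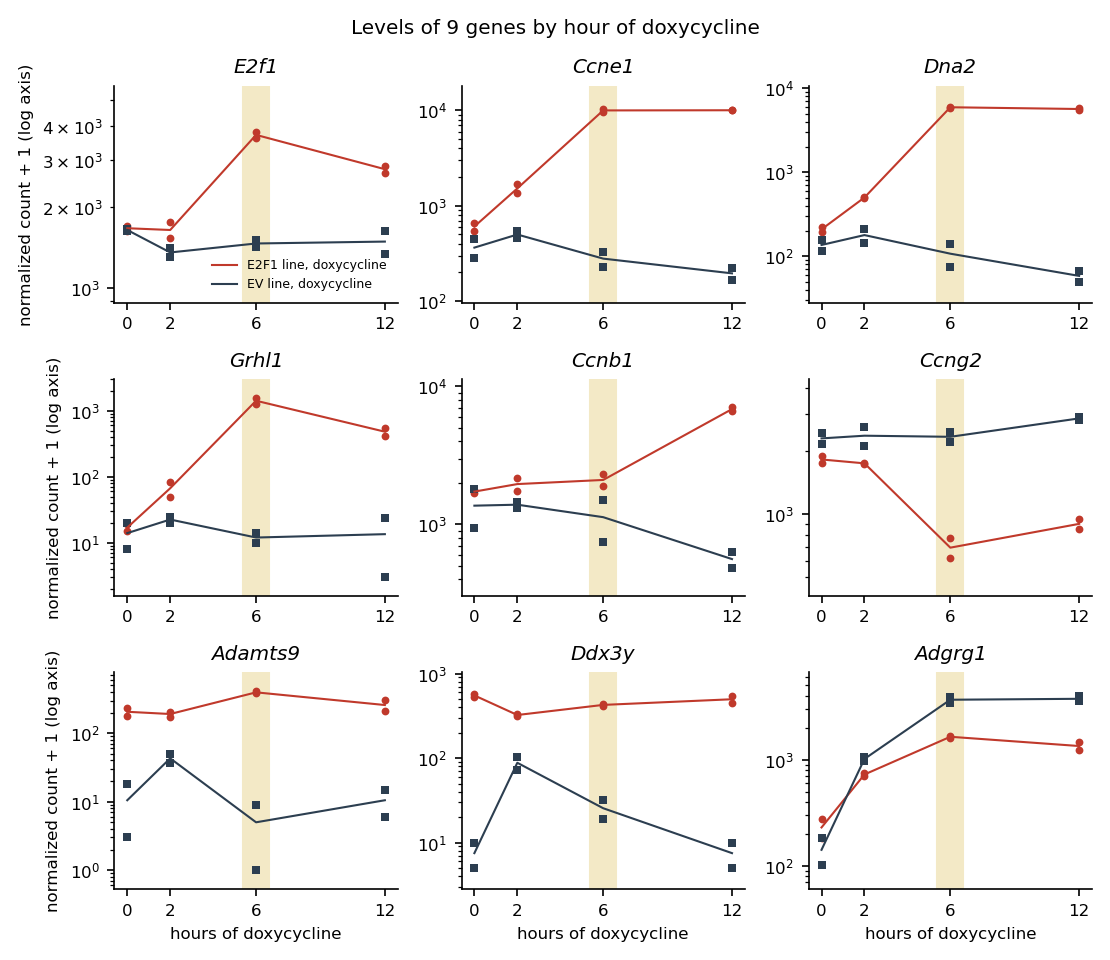
Normalized count plus 1 (log axis) against hours of doxycycline for 9 genes; points are libraries, lines join the means of 2, and the 6 h comparison is shaded. Ccne1 and Dna2 in the E2F1 line reached at 6 h (means 9991 and 5938) about the level they held at 12 h (10031 and 5660.5), whereas Ccnb1 stood at 2100 at 6 h and 6851 at 12 h.

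Apoptosis genes linked to E2F1 were split, with 7 of 19 higher, 2 lower and a median of 0.21. The share of higher genes was near that of all genes, 33.0%. Map3k5, which encodes the stress kinase ASK1, read 690 and 558 in the E2F1 line against 64 and 62 in the EV line, and 78 and 95 against 100 and 94 at 0 h. The log2 difference was 3.28 ± 0.28 (limma adjusted p = 1.284e-08) at 6 h and -0.17 at 0 h. Casp8, the initiator caspase of death receptors, was higher by 1.35. The pro-apoptotic Siva1 was higher by 1.46. Of the 19 genes 10 were not called, among them Apaf1 (-0.20), Casp9 (-0.06), Bbc3, which encodes PUMA (0.31), and Bax (0.21). Casp6 was lower at -0.90, and the BH3-only gene Bmf was lower at -1.47, a call lost without replicate 1 of either line.

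Of 19 genes of p53 and its targets 9 were higher and 2 lower, against 33.0% and 27.2% of all genes. These counts became 6 and 5 with quantile normalization. Tigar, a phosphatase that lowers glycolysis, read 1244 and 994 against 141 and 136 at 6 h and 98 and 91 against 105 and 101 at 0 h, a log2 difference of 3.00. Pidd1, a scaffold of caspase-2 activation, read 919 and 951 against 101 and 205 (log2 2.69). Together with Cdkn1a these genes were far apart at 6 h, while several other p53 targets had small values: Mdm2 was at 0.22, Ccng1 at -0.27, Sesn1 at -0.23, not called, and Zmat3 at 0.21, not called. Trp53 itself was higher by 0.61.

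Immediate early transcription factors, which answer within minutes to growth factors, differed one by one. Of 22 genes 8 were higher and 4 lower, against 33.0% and 27.2% of all genes, so the share of higher genes was near the background. Nr4a3, an orphan nuclear receptor, read 398 and 260 in the E2F1 line against 17 and 25 in the EV line (log2 3.90 ± 0.61, limma adjusted p = 2.483e-05), with 17 and 4 against 19 and 12 at 0 h. Egr1 read 10500 and 8304 against 2242 and 1579 (log2 2.31), and Fos 312 and 247 against 96 and 67 (log2 1.78). Egr1 leaned upward at 0 h too (0.66, adjusted p = 0.0599), whereas Fos did not (-0.28). Klf10 was higher by 2.23 and Klf2 lower at -1.44. Myc read 2791 and 2166 against 1815 and 1851 (0.42, adjusted p = 0.02221), with nearly the same value at 0 h (0.43, adjusted p = 0.0628). The Myc call at 6 h was lost with quantile normalization (0.21) and without E2F1 replicate 1 (0.24), EV replicate 1 or EV replicate 2.

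Feedback inhibitors of the ERK pathway were higher in 6 of 10 genes and lower in 2, against 33.0% and 27.2% of all genes. Fewer were higher without EV replicate 2. Dusp4, a nuclear ERK phosphatase, read 241 and 233 against 101 and 18, so the EV libraries lay far from each other, and its value was 2.43 with both and 1.22, not called, without EV replicate 2. Dusp7 was higher by 1.01 and Spred3 lower at -1.04. Growth factor receptors were lower in 5 and higher in 3 of 16 genes, against 27.2% and 33.0% of all genes. Pdgfra, a receptor that carries the growth signal of PDGF in fibroblasts, read 26870 and 33178 in the E2F1 line against 74007 and 55854 in the EV line (log2 -1.11 ± 0.19, limma adjusted p = 8.761e-05), and 46438 and 50638 against 71387 and 57591 at 0 h. The E2F1 libraries were below the EV libraries at both hours, and the 6 h difference was not called as larger (-0.70, adjusted p = 0.05562). The 2 chains of the TGF-beta receptor went opposite ways: Tgfbr1 read 5051 and 4515 against 1802 and 1582 (log2 1.50) and Tgfbr2 10376 and 8025 against 18789 and 17225 (log2 -0.98). Tgfbr2 was already lower at 0 h (-0.69), and Tgfbr1 was not called there (0.31).

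Of 29 genes of the fibroblast matrix 12 were lower and 6 higher at 6 h, against 27.2% and 33.0% of all genes. With equal totals 17 were lower. The median of the list was -0.25, and -0.14 without EV replicate 1. Col3a1, Col1a2 and Col5a1 were lower at -0.88, -0.44 and -0.45, and Col1a1 was not called (-0.25). Timp3, an inhibitor of matrix proteases, was lower at -0.99. Lum, or lumican, read 1301 and 1539 against 571 and 326 at 6 h (log2 1.71) and 2168 and 1938 against 578 and 445 at 0 h (2.01). Lum and Postn, at 1.58 and 1.84 at the 2 hours, were thus higher in the E2F1 line before doxycycline, and the Postn call at 6 h was lost without EV replicate 2. Ccn1, a matricellular target of serum and YAP, read 9357 and 6024 against 2725 and 1916 at 6 h (log2 1.72), whereas its 0 h libraries overlapped (4698 and 9301 against 3366 and 5576).

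At 6 h the medians of the metabolic and stress lists stayed near that of all genes, of which 33.0% were higher and 27.2% lower. Of 23 sterol synthesis genes 6 were higher and 6 lower, and the counts turned on the libraries, with 1 higher and 7 lower without EV replicate 1 and 7 higher and 1 lower without E2F1 replicate 2. Insig1, which retains the sterol sensor in the endoplasmic reticulum, was the highest at 0.74 and the synthase Fdft1 the lowest at -0.53. In the ATF4 response, which supplies amino acids under stress, 6 of 19 genes were higher and 3 lower, and 3 and 5 with quantile normalization and 3 and 4 without E2F1 replicate 1. Mthfd2, a mitochondrial folate enzyme, read 4135 and 3029 against 986 and 1147 (log2 1.73), with 0.72 at 0 h, and Atf4, Ddit3 and Asns were not called (0.19, -0.41 and 0.04). Of the 14 measured interferon-stimulated genes 3 were higher and 2 lower at 6 h. At 0 h 5 were higher, against 8.86% of all genes, and the median was 0.52. In 4 of the 14 the 6 h difference was below that at 0 h, and in 0 above it. Over all genes these shares were 12.3% and 22.2%. The median of the 6 h minus the 0 h difference was -0.62, against -0.03 over all genes. Stat2, a subunit of the interferon-activated factor, was lower at 6 h, at 1157 and 1366 against 2558 and 2602 (log2 -1.04). Parp14 read 285 and 279 against 139 and 136 at 6 h and 404 and 502 against 111 and 95 at 0 h, and its 6 h call was lost without any 1 of the 4 libraries of that hour. Without any 1 of them 1 gene of the list was higher and 2 lower.

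Genes of FOXO signalling and quiescence formed the list with the lowest median, -0.56, with 14 of 19 genes lower and 2 higher. Ccng2, which encodes cyclin G2, a FOXO target that accompanies cell cycle exit, read 617 and 768 in the E2F1 line against 2470 and 2212 in the EV line at 6 h (log2 -1.76 ± 0.23, limma adjusted p = 2.871e-06). At 0 h it read 1896 and 1754 against 2442 and 2159, a difference that was not called (-0.33, adjusted p = 0.3568), and the 6 h value exceeded it by -1.43 (adjusted p = 0.002085). Pik3ip1, an inhibitor of PI3 kinase, read 541 and 843 against 1764 and 1605 (log2 -1.32). Sesn3, a sestrin induced by FOXO factors, read 7059 and 6823 against 17253 and 16048 (log2 -1.26), and was also lower at 0 h (-0.56). Txnip, which binds thioredoxin and limits glucose uptake, was lower at -1.0, and Btg1, an antiproliferative gene, at -0.66. The FOXO genes themselves split, with Foxo1 higher (1264 and 1120 against 662 and 539, log2 0.99) and Foxo3 and Foxo4 lower (-0.33 and -0.75). Gas6, the ligand of the Axl and Mertk receptors, was higher at both hours (1.50 and 1.75). The 6 h difference was below the 0 h difference in 8 of the 19 genes and above it in 1, against 12.3% and 22.2% of all genes.

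Ribosome biogenesis was higher in 16 of 29 genes and lower in 3, against 33.0% and 27.2% of all genes. With quantile normalization these counts were 11 and 7. Ubtf, the factor that opens ribosomal DNA for RNA polymerase I, read 24402 and 23104 against 6945 and 6782 at 6 h (log2 1.79 ± 0.08, limma adjusted p = 7.029e-12) and 7258 and 7573 against 6913 and 6643 at 0 h. Ubtf was therefore close between the lines at 0 h (0.13). Nop56, a core protein of box C/D particles, was higher by 1.36, and Gar1, of box H/ACA particles, by 1.20; Nop56 hosts small nucleolar RNA genes, so some of its reads may be theirs. For the list as a whole the median at 6 h, 0.26, lay near that at 0 h, 0.28, where 14 genes were higher and 0 lower.

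Some of the largest 6 h values were present before the drug. Adamts9, a metalloproteinase, had the highest log2 difference of all genes at the pseudocount of 1, at 408 and 382 in the E2F1 line against 8 and 0 in the EV line (7.04 ± 0.98, limma adjusted p = 6.715e-06). With an EV library listed at 0 this value depends on the pseudocount, and at a pseudocount of 8 it was 5.15, below the 6.23 of Grhl1. At 0 h it read 180 and 230 against 17 and 2 (4.80), and the 6 h difference was not called as larger (2.25, adjusted p = 0.2208). Brinp3, known from the nervous system, read 303 and 365 against 7 and 4 at 6 h and 396 and 433 against 4 and 11 at 0 h, equal differences of 5.72 and 5.74. Slc35g1, a membrane transporter-family gene, read 1368 and 1352 against 26 and 14 at 6 h and 50 and 53 against 7 and 15 at 0 h, and its 6 h difference exceeded that of 0 h by 3.87 (adjusted p = 0.00187). On the low side Sorcs2, a sortilin-family receptor, read 165 and 156 against 752 and 1008 at 6 h and 258 and 237 against 926 and 1150 at 0 h. Mertk, a receptor tyrosine kinase, read 70 and 93 against 444 and 443 at 6 h and was lower at 0 h too (-2.44 and -1.45). The 16 genes that exceeded the EV line by at least 8-fold at 0 h were all higher at 6 h, by 1.92 to 7.04. Of the 2 at least 8-fold lower at 0 h, Ptprj and Wnt11, 0 were called at 6 h.

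The Y-linked helicase gene Ddx3y marked the lines apart. It read 415 and 435 in the E2F1 line against 31 and 18 in the EV line at 6 h (log2 4.11, limma adjusted p = 9.166e-08) and 580 and 521 against 9 and 4 at 0 h (6.28). The 6 h difference was the smaller by 2.17 in size (-2.17, adjusted p = 0.006583), and the EV libraries at 2 h read 103 and 71. Whether reads passed between libraries was not tested. Adgrg1, an adhesion receptor, moved in the other direction between the hours. It read 1609 and 1672 against 3410 and 3907 at 6 h (-1.15) and 181 and 278 against 101 and 181 at 0 h (0.73). Its level was higher at 6 h than at 0 h in every library of both lines, so the lower value in the E2F1 line at 6 h stands within a gene that was up in both arms. The 6 h difference was below the 0 h difference by 1.88 in size (-1.88, adjusted p = 9.857e-05).

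Whole chromosomes also carried a standing difference. Over 20 chromosomes the median log2 difference of a chromosome's genes ran from -0.145 to 0.242 at 0 h and from -0.170 to 0.176 at 6 h. Chromosome 1 was highest at both hours (0.242 and 0.176), and chromosome 9 (-0.145 and -0.170), chromosome 10 (-0.141 and -0.137) and chromosome 12 (-0.143 and -0.136) were among the lowest at both. The order of chromosomes was alike at the 2 hours, with a Pearson r of 0.93 and a Spearman rho of 0.88 over 20 chromosomes, a description whose points share the libraries of each hour. Medians of the 6 h minus the 0 h difference ran from -0.091 to 0.048. DNA copy number was not measured, and its part in these values was not tested. On chromosome 1 269 of 655 genes (41.1%) were higher at 6 h, against 33.0% of all genes.

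**Figure D5:**
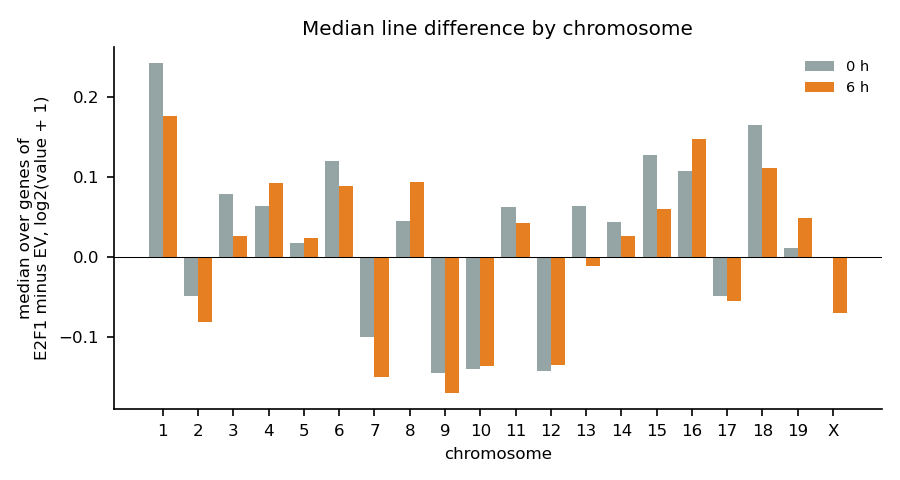
Median E2F1-minus-EV log2 difference of the genes of each chromosome at 0 h (grey) and at 6 h (orange), on an axis that spans less than 0.5. The bars of the 2 hours keep the same sign on most chromosomes, with chromosome 1 the highest (0.242 and 0.176) and chromosome 9 the lowest at 6 h (-0.170).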

How the data were processed

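Polyadenylated RNA was read from both ends over 150 bp, per the labels' protocols. FastQC, Trimmomatic, HISAT2, featureCounts and DESeq2 and the build mm10 are named in the submitters' processing notes, without roles or versions. The authors deposited normalized counts rounded to whole numbers, treated here as a score and not as raw counts; how they were scaled and whether counting used strand are not given in the sources used here. Whole reads could not be recovered in the 6 h libraries, so no count test was run. Groups and replicate numbers came from the labels.

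The fit used limma 3.58.1 (R 4.3.3) on log2(value + 1), with a mean for each of 11 groups over 22 libraries, a trend of variance with mean in the empirical Bayes step and 11 residual degrees of freedom. Benjamini-Hochberg adjustment ran over 11208 genes, and adjusted p-values under 0.05 were called. A filter of at least 10 in 2 libraries removed no gene. An exact test of 2 libraries against 2 cannot go below p = 0.33. On data simulated for the 6 h comparison over 11208 genes, 94 of 107 genes changed by 1 on the log2 scale and 93 of 93 changed by 2 were recovered, and 9 unchanged genes were called. The simulated noise was independent between genes and few genes were changed, unlike in these data. The count of wrong calls therefore does not carry over to them.

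The gene lists and the rule for named genes were chosen with earlier results of these data known. The rule took genes called at 6 h whose higher 6 h group averaged 50 or more and whose libraries did not overlap: the 10 highest and 10 lowest not called at 0 h in the same direction, the 4 highest and 4 lowest that were, and up to 4 of largest size from each list. Adgrg1, Ddx3y, Cdkn1a, Myc, Ccnd1, Ccnb1, Cdk1, Ccna2, Rrm2, Pcna, Mcm3, Cdc6, Ccne2, Ccne1 and E2f1 were always named. Together these were 127 genes; other list members are given by their values to show a list's spread, and were chosen after their values were seen, as were Ptprj, Wnt11 and Tmem176b. Lists were described by counts and medians and not tested. Some genes that met the rule are not reported here.

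Positions are from GRCm38 with GENCODE M21, which held 10977 of the 11208 identifiers with the same version and all without it. Promoter windows are from RefSeq. The alternatives tried were a pseudocount of 8, no filter, a mean of at least 500, quantile normalization, equal totals, a fit to only the groups compared, a 2-fold minimum, a replicate block, leaving out the 2 h or the serum libraries, and leaving out each replicate. Tables and figures were made with Python 3.11.15, numpy 2.4.6, pandas 2.3.3, matplotlib 3.10.9 and scipy 1.17.1.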

Additional observations from a re-analysis of the deposited data

Results flagged for a closer look

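The 6 h difference between the lines was tested against the 0 h difference in every gene, and 3866 genes differed between the hours in limma. Among the named genes, Cdkn2c and Adgrg1 were called at both hours with opposite signs. For Cdkn2c the 6 h difference exceeded the 0 h difference by 1.70 (1.26 against -0.44, adjusted p = 8.538e-09), with both E2F1 libraries above both EV libraries at 6 h and below them at 0 h. For Adgrg1 it was -1.88 (-1.15 against 0.73, adjusted p = 9.857e-05), with the E2F1 libraries below both EV libraries at 6 h. At 0 h 1 E2F1 library of Adgrg1 and 1 EV library had the same value, 181.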

How the results depend on the processing

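The number of libraries, 2 a group, limited precision, and the depth of the 6 h libraries is unknown. Of 127 named genes, 110 kept their direction and their side of the threshold under every alternative run (13 or 14 each). In all, 36 values of named genes lost a call and 2 turned sign, both of Ccnd1, which ranged from -0.40 to 0.29 when 1 library was left out (0.04 without E2F1 6 h replicate 2, 0.29 without EV 6 h replicate 2). The median of the p53 list turned to -0.003 with quantile normalization. Of the list medians 300 moved by less than the spread and 35 by more.

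A requirement of at least a 2-fold difference left 1379 higher and 417 lower genes at 6 h, 148 and 60 at 0 h, and 1013 and 144 for the 6 h minus the 0 h difference. Fitting only the groups compared left 385 higher and 268 lower genes at 0 h, with fewer libraries to estimate the spread. Genes whose 6 h difference was below the 0 h difference numbered 2583 with quantile normalization and 2251 with equal totals, against 1373; the cause was not tested. The share of upward calls in that test was 44.5% and 48.3% with these scalings, against 64.5%. At 0 h the share of higher calls was 72.0% with equal totals and 59.0% as deposited.

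Leaving out 1 library at a time gave 3111 to 3451 higher and 2344 to 2542 lower genes at 6 h, 384 to 798 and 300 to 438 at 0 h, and 2014 to 2477 and 883 to 1291 for the 6 h minus the 0 h difference. The lowest of the latter was without EV 6 h replicate 1. In these fits the lone library of a group was assumed to vary like the others.

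The replicate numbers did not pair the lines: deviations of same-numbered replicates correlated at 0.01 between the lines at 6 h and over 0.1 in 18 of 55 pairs of groups. Between 0 h and 6 h they correlated at 0.36 within the E2F1 line and 0.45 within the EV line. With the replicate number as a block 3729 genes were higher and 3129 lower at 6 h, 1063 and 777 at 0 h, and 2556 and 1446 for the 6 h minus the 0 h difference. A block within each line, chosen after seeing the data, gave 3725 and 3115 at 6 h, 1042 and 749 at 0 h, and 2541 and 1444 for the 6 h minus the 0 h difference.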

Other observations

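Genes that set the E2F1 line apart at 0 h had uneven low levels in the EV line across the hours of doxycycline. Ddx3y read 9 and 4 at 0 h, 103 and 71 at 2 h, 31 and 18 at 6 h and 9 and 4 at 12 h in the EV line, against 316 to 580 in the E2F1 line. Adamts9 read 17 and 2 at 0 h, 36 and 48 at 2 h, 8 and 0 at 6 h and 5 and 14 at 12 h in the EV line. Whether reads passed between libraries was not tested. With the 2 h libraries left out of the fit, 3609 genes were higher and 2926 lower at 6 h.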
